A study of Mus musculus with 4 samples.

Results

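Ribosome biogenesis factors are the nucleolar proteins that transcribe, cut, modify and fold ribosomal RNA and assemble it with ribosomal proteins. The set described here holds 49 mouse genes for such factors among 39186 genes in the deposited table. They were found by gene symbol, and every symbol matched 1 row. The set was chosen from the *Pich*-KO and *Pich*-WT values of these same libraries, which showed its genes higher in *Pich*-KO. The difference between the groups in these genes is therefore given below as a description. Calls of single members come from the fit over all genes, on the same values that chose them, and are no test of the set or of its roles. All 49 genes passed the filter on low values, a mean normalized count of at least 1, and the lowest mean in *Pich*-WT alone was 209 normalized counts (*Mdn1*), so none of them passed only through the group in which it was high.

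RNA was sequenced from LSK cells sorted from the fetal liver of C57BL/6 embryos, in 2 samples of *Pich*-KO and 2 of *Pich*-WT. LSK cells lack lineage markers and carry Sca-1 and c-Kit, and hematopoietic stem cells and early progenitors are found among them. *Pich*-KO embryos carry a short deletion in the second exon of the X-linked PICH gene (listed as *Ercc6l*) in all their tissues, and no agent was given to either group. *Pich*-WT embryos have the intact gene. Fetal livers for cell sorting in the study were taken at E14.5, and the labels do not say whether a sample is 1 embryo or a pool, so the spread between samples may be partly technical. In bulk RNA, fewer cells of one type and less RNA per cell cannot be told apart.

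In the nucleolus, RNA polymerase I copies the ribosomal DNA into one long precursor. The small subunit processome, of which the UTP-A and UTP-B complexes and the U3 box C/D particle are early parts, folds that precursor and prepares the cuts that release the 18S RNA. Box C/D particles add methyl groups and box H/ACA particles make pseudouridines, while a separate line of factors matures the large subunit. Growing and dividing cells make many ribosomes, and the transcription factor MYC, which binds the E-box CACGTG, is known as an activator of genes of this pathway.

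The sequenced reads that fell on genes came to 14703215 to 20933919 per sample. The normalized count, the unit used below, is the number of reads on a gene divided by one size factor per sample. *Ercc6l* had 1142 and 1232 normalized counts in *Pich*-KO against 772 and 661 in *Pich*-WT, and as transcripts of the deleted allele are counted this does not check the genotype. *Pich*-WT sample 2 differed from the other 3 in its sex-linked reads, with 0 reads on 4 Y-linked genes and 699 on *Xist*, against 1607 to 2848 reads and 4 to 13 reads in the others. The sorted fractions also differed in markers of other cells, as described with the results below.

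The promoter windows of 4 members are shown because they hold the letters to which the motif counts below refer. *Heatr1* had the highest fold change of the set. *Mdn1* and *Utp20* were the members with the highest fold change among those with an E-box in the window. *Rrn3* holds the E-box at 2 places and was not called. Each window runs from 250 bases before to 50 bases after the RefSeq start of the gene on build GRCm38.p6 and is written 5′ to 3′ on the strand of the gene. Capitals mark CACGTG (E-box), and CCGGAAG (the core bound by ETS factors) or its reverse complement. The windows are chr13:12395125-12395424 (plus strand) for *Heatr1*, chr4:32656869-32657168 (plus strand) for *Mdn1*, chr10:88826765-88827064 (minus strand) for *Utp20* and chr16:13780449-13780748 (plus strand) for *Rrn3*.
Heatr1: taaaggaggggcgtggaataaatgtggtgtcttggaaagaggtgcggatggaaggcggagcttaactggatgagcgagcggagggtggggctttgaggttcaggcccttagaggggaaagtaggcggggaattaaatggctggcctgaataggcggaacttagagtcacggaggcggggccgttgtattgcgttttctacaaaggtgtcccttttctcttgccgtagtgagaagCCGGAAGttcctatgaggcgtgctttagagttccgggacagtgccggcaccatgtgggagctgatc
Mdn1: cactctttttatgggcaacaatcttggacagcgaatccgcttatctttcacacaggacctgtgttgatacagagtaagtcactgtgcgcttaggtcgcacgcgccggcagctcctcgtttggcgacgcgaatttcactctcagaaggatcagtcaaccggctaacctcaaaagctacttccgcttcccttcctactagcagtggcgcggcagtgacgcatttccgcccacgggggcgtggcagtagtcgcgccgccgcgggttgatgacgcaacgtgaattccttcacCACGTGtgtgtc
Utp20: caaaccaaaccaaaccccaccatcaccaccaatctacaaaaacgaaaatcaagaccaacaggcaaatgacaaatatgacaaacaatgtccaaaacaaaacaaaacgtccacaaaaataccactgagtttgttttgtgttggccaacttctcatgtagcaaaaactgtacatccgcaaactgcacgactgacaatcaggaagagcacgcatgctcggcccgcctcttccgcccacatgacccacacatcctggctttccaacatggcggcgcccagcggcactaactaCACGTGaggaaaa
Rrn3: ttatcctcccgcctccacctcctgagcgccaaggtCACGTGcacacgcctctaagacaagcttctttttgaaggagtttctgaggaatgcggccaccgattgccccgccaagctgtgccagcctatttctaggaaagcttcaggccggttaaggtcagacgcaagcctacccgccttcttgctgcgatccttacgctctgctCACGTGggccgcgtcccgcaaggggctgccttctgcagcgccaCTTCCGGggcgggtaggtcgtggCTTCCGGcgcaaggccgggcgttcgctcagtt

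In the windows of *Mdn1* and *Utp20* the E-box begins 38 and 37 bases after the start. In that of *Rrn3* it begins 215 and 48 bases before the start, and the ETS letters begin 5 bases before and 18 bases after it. The window of *Heatr1* holds no E-box, and its ETS letters begin 16 bases before the start. This window begins at 12395125, inside the gene as the deposited table places it, from 12395027. Bases before that earlier start were not searched. These matches are letters in a window and were not measured as bound sites.

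Of the 49 members, 45 stood higher in *Pich*-KO at an adjusted p under 0.05 by limma with Benjamini-Hochberg adjustment over 32428 genes tested, and 0 were lower. At an unadjusted p under 0.05, 49 were higher and 0 lower. Of the 32428 genes tested, 4427 were higher and 4867 lower at that unadjusted p. Of the 10544 with a mean of at least 100, 3229 were higher and 3068 lower at it. Both edgeR and DESeq2 likewise called 0 members lower. Over all genes tested the adjusted rule called 7.58% higher and 9.6% lower. Among the 10544 genes whose mean was 100 or more normalized counts, as it was for all 49 members, it called 21.1% higher and 22.4% lower. Both *Pich*-KO samples lay above both *Pich*-WT samples in 49 of 49 members, which held for 28.9% of all genes tested and for 41.7% of those with a mean of at least 100. Since these values chose the set, nothing is read from the counts. All adjusted calls depended on a variance that follows the mean level and on all 4 samples. With one prior variance for all genes, 0 of 49 members and 0 of all genes tested were called. At an unadjusted p under 0.05, that setting had 34 members and 3343 of the 32428 genes tested higher.

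Over the 49 members the log2 fold change had a median of 0.85, a fold of 1.80, where that of all genes tested was 0.02 and that of genes with a mean of at least 100 was 0.04. The lowest value was 0.27 and the highest 2.99, with quartiles of 0.61 and 1.06. At least a 2-fold difference was seen in 17 members, a difference between 1.5-fold and 2-fold in 21, and one below 1.5-fold in 11. Of the 10544 genes averaging 100 or more normalized counts, 699 (6.63%) were at least 2-fold higher in *Pich*-KO. Another 1150 were higher by 1.5-fold to 2-fold, and the remaining 8695 include genes lower in *Pich*-KO. Because the set was chosen on these values, nothing is read from its larger shares. Apart from *Heatr1*, which lay far above the rest, the members ran from 0.27 to 1.66 (*Mdn1*) on the log2 scale. On the log2 scale, *Pich*-KO sample 2 differed from sample 1 by -0.26 to 0.31 over the members and *Pich*-WT sample 2 from sample 1 by -0.24 to 0.30. In 49 of 49 members both of these gaps were smaller than the difference between the groups, as they were in 7602 of 10544 genes with a mean of at least 100. The median over the members was 0.85 without the Xist-high *Pich*-WT sample 2 and 0.81 to 0.88 over the other samples left out.

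**Figure D1:**
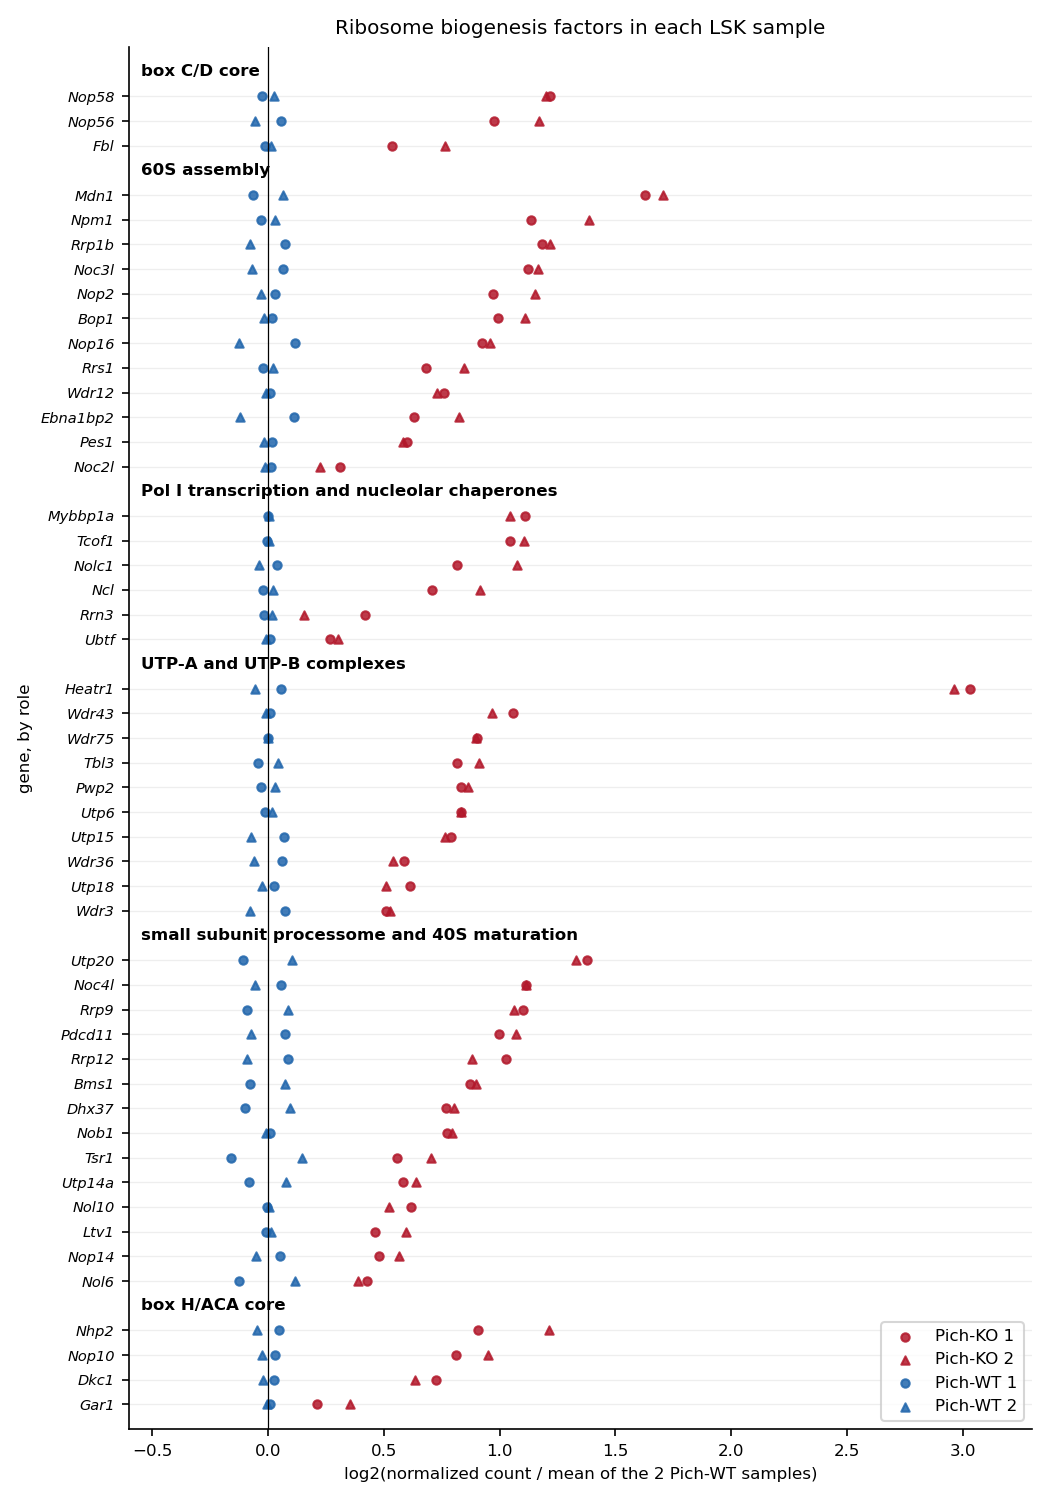
Each point is 1 sample's normalized count for 1 gene, as log2 of its ratio to the mean of the 2 *Pich*-WT samples (x axis), for the 49 members grouped by role (y axis). The red *Pich*-KO points lie to the right of the blue *Pich*-WT points in each row, and *Heatr1* stands alone near 3 on the log2 scale.

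Together the 49 genes took 1.39% and 1.47% of all normalized counts in *Pich*-KO samples 1 and 2, and 0.784% and 0.820% in *Pich*-WT samples 1 and 2. The ratio of the summed counts was 1.86. Nucleolin (*Ncl*) and nucleophosmin (*Npm1*), the abundant chaperones of the nucleolus, took 0.351% and 0.408% in *Pich*-KO against 0.188% and 0.204% in *Pich*-WT, and the ratio of the sums was 1.81 without them.

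**Figure D2:**
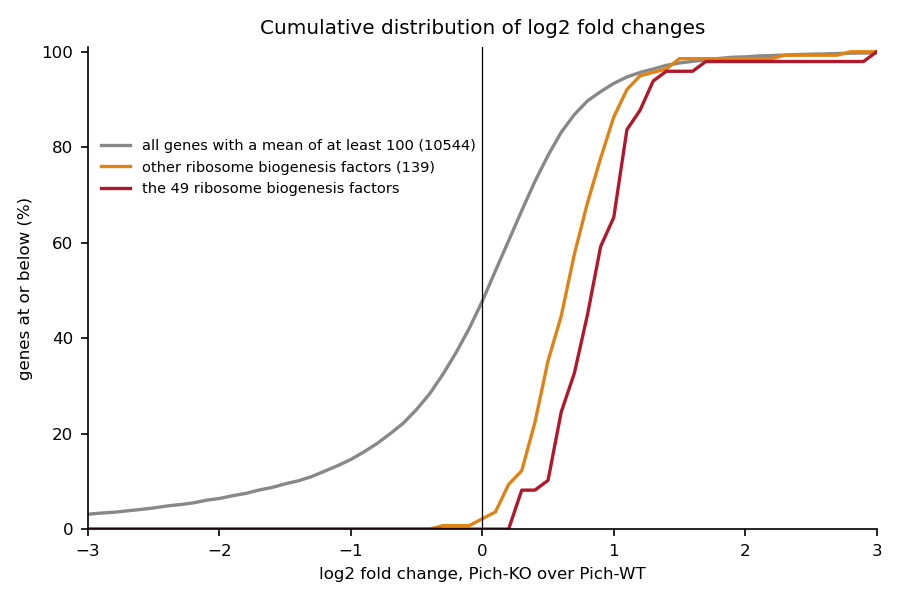
The share of genes (y axis, %) whose log2 fold change, *Pich*-KO over *Pich*-WT, is at or below the value on the x axis, for the 49 members, for 139 other ribosome biogenesis factors and for 10544 genes with a mean of at least 100 normalized counts. The members' line leaves 0% above 0.2, and the line of all genes crosses the middle near 0.04.

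The UTP-A and UTP-B complexes are the first large assemblies on the new transcript. All 10 of their members in the set passed the threshold, with a median log2 fold change of 0.84. Among genes with a mean of at least 100, 21.1% were called higher. As these values chose the set, nothing is read from this count or from those of the roles below. *Heatr1*, a large scaffold protein of UTP-A that is also needed for transcription by RNA polymerase I (chromosome 13, 12395027 to 12440289), had 2201 and 2102 normalized counts in *Pich*-KO against 280 and 259 in *Pich*-WT. The groups were far apart, and the samples of a group were close. Its log2 fold change was 2.99 (SE 0.13), a fold of 7.96, and it stayed between 2.94 and 3.05 when any 1 sample was left out. A lower log2 fold change was seen in 99.8% of the 10544 genes whose mean was 100 or more.

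The partners of *Heatr1* in UTP-A were higher by smaller amounts. *Wdr43* had 6698 and 6286 normalized counts in *Pich*-KO against 3236 and 3198 in *Pich*-WT, with a log2 fold change of 1.01 (SE 0.09). *Wdr75* had 2037 and 2035 against 1092 and 1090, with a log2 fold change of 0.90 (SE 0.11) and nearly equal samples within each group. *Utp15* lay lower, at a fold of 1.72. In UTP-B, the scaffold that joins the early transcript, *Tbl3*, *Pwp2* and *Utp6* stood at folds of 1.82, 1.80 and 1.78. *Wdr36* had 2896 and 2801 against 2008 and 1846 normalized counts, a log2 fold change of 0.56 (SE 0.10). *Utp18* had 1884 and 1753 against 1254 and 1209, a log2 fold change of 0.56 (SE 0.11). *Wdr3* was the lowest of the 10, with 2292 and 2320 against 1692 and 1526 and a log2 fold change of 0.52 (SE 0.11). Of the 6 proteins of UTP-B, 3 had folds of 1.78 to 1.82 and 3 had folds of 1.43 to 1.48. The standard errors of the log2 fold changes were 0.10 to 0.11, and differences between these genes were not tested.

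Of the 14 factors of the later small subunit processome and of 40S maturation, 14 passed the threshold, with a median log2 fold change of 0.79. The share called higher among genes with a mean of at least 100 was 21.1%. *Utp20*, a long scaffold protein of the processome, had 999 and 966 normalized counts in *Pich*-KO against 356 and 413 in *Pich*-WT. Its groups were separated by more than the gap between the *Pich*-WT samples, with a log2 fold change of 1.35 (SE 0.15). *Noc4l*, the partner of *Nop14*, had 4246 and 4248 against 2041 and 1886, a log2 fold change of 1.11 (SE 0.10). *Rrp9*, the protein particular to the U3 particle, had 2261 and 2197 against 989 and 1119, a log2 fold change of 1.08 (SE 0.12). *Pdcd11*, an RNA-binding factor of the early precursor, and *Rrp12*, which serves in export of the 40S subunit, had folds of 2.05 and 1.94. *Bms1*, a GTPase, and *Dhx37*, the helicase that frees U3 from the precursor, had folds of 1.85 and 1.73. *Nob1*, the nuclease that makes the final cut of the 18S RNA, had a fold of 1.72.

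The lowest of this group were *Ltv1*, *Nop14* and *Nol6*. *Ltv1*, a 40S maturation factor, had 2178 and 2386 normalized counts against 1569 and 1593, a log2 fold change of 0.53 (SE 0.11). *Nop14* had 1253 and 1332 against 932 and 866, a log2 fold change of 0.52 (SE 0.12), below that of its partner *Noc4l*. *Nol6* had 2667 and 2595 against 1818 and 2147, a log2 fold change of 0.41 (SE 0.12), and was no longer called with a pseudocount of 0.1 or without the filter on the mean. It was not the only member lost, as 43 of the 49 were called higher without that filter, against 45 with it. *Tsr1*, *Utp14a* and *Nol10* lay between, with folds of 1.48 to 1.55.

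Of 12 factors for the large subunit, 11 passed, against 21.1% called higher among genes with a mean of at least 100. The median log2 fold change of the 12 was 1.00. *Mdn1*, a very large AAA ATPase that remodels the 60S precursor, had 645 and 680 normalized counts in *Pich*-KO against 199 and 218 in *Pich*-WT, with a log2 fold change of 1.66 (SE 0.16). *Npm1* had 28088 and 33400 against 12510 and 13067, a log2 fold change of 1.26 (SE 0.09). The gap between the *Pich*-KO samples was wider than that between the *Pich*-WT samples, and both lay far above the latter. *Rrp1b*, a nucleolar factor of the 60S precursor, had 2900 and 2971 against 1345 and 1211, a log2 fold change of 1.20 (SE 0.11).

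*Noc3l*, *Nop2* (an RNA methyltransferase), *Bop1* and *Nop16* had folds of 2.21, 2.09, 2.07 and 1.93, and *Rrs1*, which helps to place the 5S particle, one of 1.70. *Ebna1bp2* had 3424 and 3923 normalized counts against 2392 and 2032, a log2 fold change of 0.73 (SE 0.12). *Pes1* had 4776 and 4732 against 3192 and 3119, with close samples in each group and a log2 fold change of 0.59 (SE 0.09). *Noc2l*, which pairs with *Noc3l* in the 60S precursor, was not called, with 5413 and 5106 against 4409 and 4323 and a log2 fold change of 0.27 (SE 0.09). It passed the threshold under edgeR and with at least 10 reads required in every sample.

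The 6 genes for RNA polymerase I transcription and nucleolar chaperones split into 4 that passed and 2 that did not. Among genes with a mean of at least 100, 21.1% were called higher. *Mybbp1a*, a nucleolar regulator of ribosomal RNA transcription and processing, had 15014 and 14373 normalized counts in *Pich*-KO against 6952 and 6977 in *Pich*-WT, with a log2 fold change of 1.08 (SE 0.07). *Tcof1*, the treacle protein that tethers the polymerase machinery in the nucleolus, had 6822 and 7116 against 3298 and 3320, a log2 fold change of 1.07 (SE 0.08). *Nolc1*, a chaperone of the snoRNA particles, had 6565 and 7871 against 3831 and 3635, a log2 fold change of 0.95 (SE 0.11). *Ncl* had 30146 and 34767 against 18192 and 18703, a log2 fold change of 0.81 (SE 0.08).

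The initiation factors of the polymerase had the lowest fold changes of the 6. *Rrn3*, which joins RNA polymerase I to its promoter, had 2201 and 1837 normalized counts against 1629 and 1667, a log2 fold change of 0.29 (SE 0.12). Its *Pich*-KO samples differed by more than the lower of them differed from *Pich*-WT, and the log2 fold change was 0.16 without *Pich*-KO sample 1 and 0.42 without *Pich*-KO sample 2. *Ubtf*, the factor that keeps ribosomal DNA open, had 4548 and 4659 against 3806 and 3754, a log2 fold change of 0.28 (SE 0.09). Neither was called. *Ubtf* passed under edgeR and with at least 10 reads required in every sample, and *Rrn3* was not called under any setting tried.

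The 3 proteins of the box C/D core in the set passed, against 21.1% called higher among genes with a mean of at least 100. *Nop58*, a scaffold of the particle, had 7171 and 7090 normalized counts in *Pich*-KO against 3035 and 3139 in *Pich*-WT, with a log2 fold change of 1.21 (SE 0.08). *Nop56*, the second scaffold, had 12280 and 14066 against 6493 and 6003, a log2 fold change of 1.07 (SE 0.09). *Fbl*, the methyltransferase fibrillarin, had 6040 and 7081 against 4126 and 4205, a log2 fold change of 0.65 (SE 0.10). Fibrillarin thus differed less between the groups than the scaffolds did.

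Of the 4 proteins of the box H/ACA core, 3 passed, against 21.1% called higher among genes with a mean of at least 100. *Nhp2* had 4282 and 5298 normalized counts in *Pich*-KO against 2357 and 2209 in *Pich*-WT, with a log2 fold change of 1.06 (SE 0.12). *Nop10* had 4584 and 5046 against 2665 and 2563, a log2 fold change of 0.88 (SE 0.10). *Dkc1*, the pseudouridine synthase dyskerin, had 7016 and 6592 against 4315 and 4176, a log2 fold change of 0.68 (SE 0.08). *Gar1*, the outer subunit, was not called, with 1884 and 2081 against 1636 and 1620 and a log2 fold change of 0.28 (SE 0.11). *Dkc1* and *Utp14a* are the 2 members on chromosome X. In the Xist-high *Pich*-WT sample 2, *Dkc1* stood at 0.97 and *Utp14a* at 1.12 of its level in *Pich*-WT sample 1.

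Shares within a complex do not depend on the size factors of the samples. They do depend on the length listed for each gene, which is the same in every sample. Per kilobase of exon, *Heatr1* made up 9.41% and 9.43% of the 4 UTP-A members in *Pich*-KO against 2.54% and 2.41% in *Pich*-WT. *Wdr43*, the most abundant of them, made up 65.0% and 64.0% against 66.6% and 67.4%. In the H/ACA core, *Gar1* made up 10.3% and 10.1% in *Pich*-KO against 14.8% and 15.3% in *Pich*-WT, and *Nop10* between 37.2% and 38.7% over the 4 samples. *Fbl* made up 28.2% and 29.1% of the C/D core in *Pich*-KO against 34.4% and 36.3% in *Pich*-WT. In PeBoW, the complex of *Pes1*, *Bop1* and *Wdr12* on the 60S precursor, *Bop1* made up 52.3% and 54.6% in *Pich*-KO against 46.0% and 45.8% in *Pich*-WT, and *Pes1* 40.2% and 38.3% against 46.4% in both. The groups did not overlap in any of these shares.

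**Figure D3:**
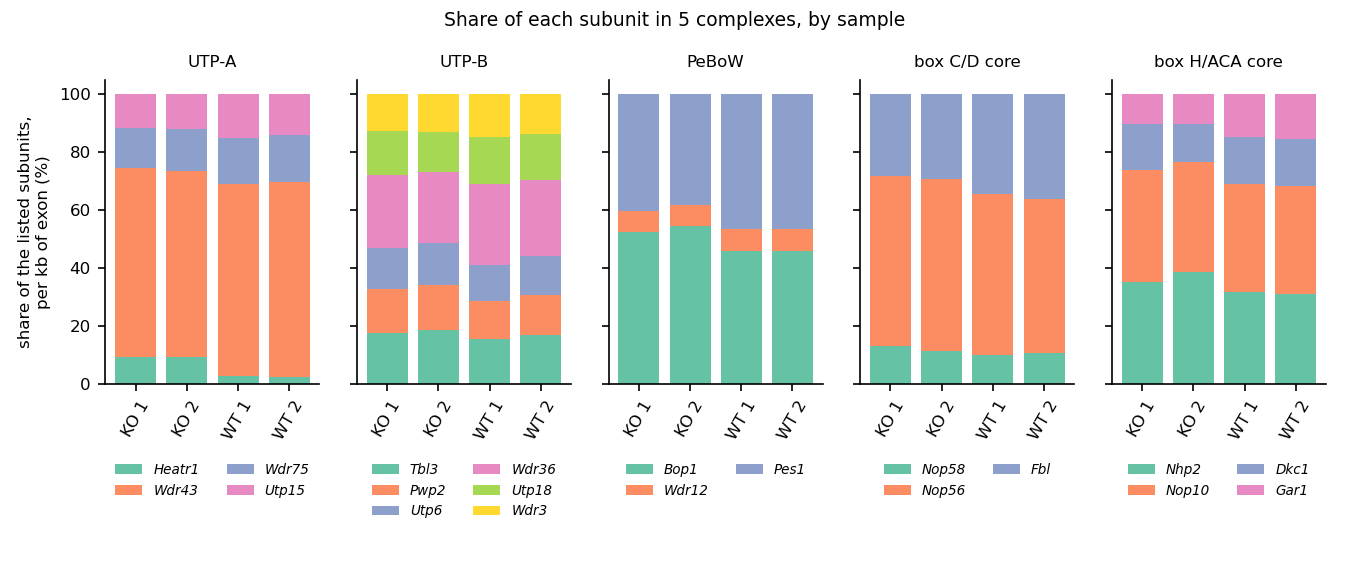
For each sample (x axis), the share of each subunit in the summed normalized counts per kilobase of exon of the listed subunits (y axis, %), in 5 complexes. *Heatr1* is the thin lowest part of UTP-A, 9.41% and 9.43% in *Pich*-KO against 2.54% and 2.41% in *Pich*-WT.

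The order of the levels per kilobase of exon was much the same in both groups, with a Spearman correlation of 0.97 over the 49 genes, which share their libraries and gene lengths. *Npm1* was the highest, at a mean of 11536 normalized counts per kilobase in *Pich*-KO and 4799 in *Pich*-WT. *Nop10* and *Nhp2* followed with 4342 and 4180 in *Pich*-KO, and *Nop56* and *Ncl* with 3214 and 3186. These neighbours did not differ beyond the spread of their samples in *Pich*-KO. The order depends on the length listed for each gene, which can be far longer than its coding sequence. It was 10188 bases for *Ncl*, with a coding sequence of 2121, and 4099 for *Nop56*, with 1740. Before division by length, *Ncl* had a mean of 32456.5 normalized counts in *Pich*-KO, against 13173 for *Nop56* and 4815 for *Nop10*. *Mdn1* was the lowest in both groups, with 30.3 against 9.55, and *Utp20* was next to it in *Pich*-KO with 96.3. *Heatr1* stood at place 48 of 49 in *Pich*-WT with 34.4 and at place 44 in *Pich*-KO with 274.8.

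**Figure D4:**
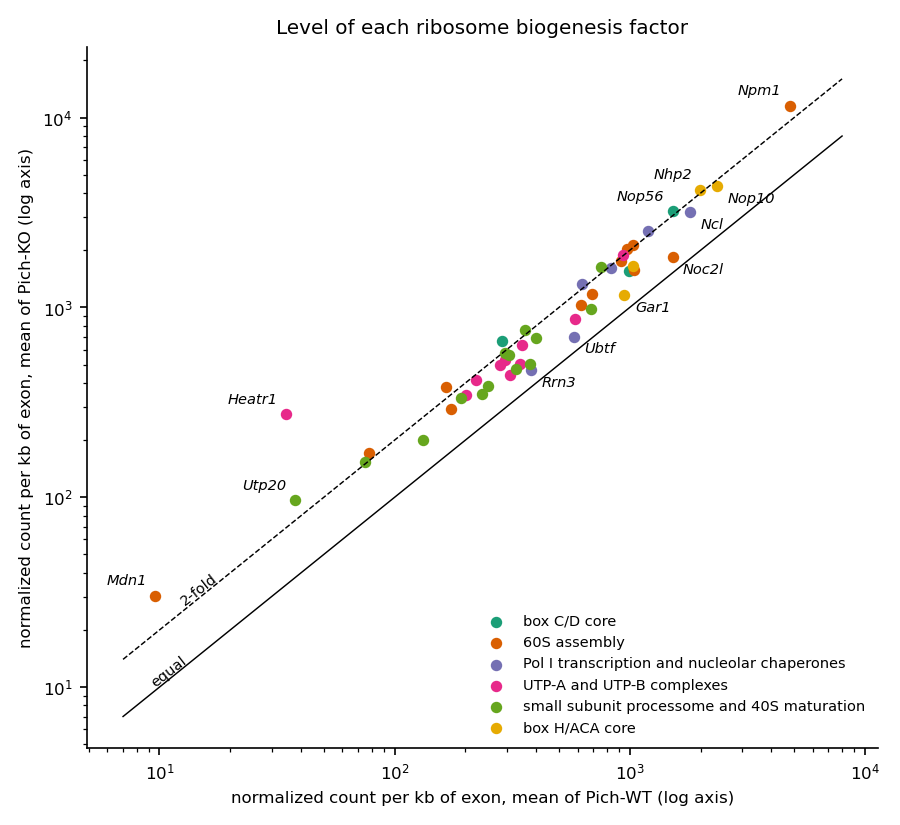
Mean normalized count per kilobase of exon in *Pich*-WT (x axis) and *Pich*-KO (y axis), both on log axes, for the 49 members coloured by role. The solid line marks equal levels and the dashed line a 2-fold higher level in *Pich*-KO. *Heatr1*, at 34.4 and 274.8, lies farthest above the dashed line, and *Noc2l*, *Ubtf*, *Rrn3* and *Gar1* lie nearest the solid one.

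The other genes of the pathway were listed by function. Of 146 names, 139 were found in the table. All 139 were tested, 98 were higher in *Pich*-KO, 0 were lower and 41 were not called, against 7.58% higher among all genes tested and 21.1% among genes with a mean of at least 100, which 137 of the 139 reached. Without adjustment, 1 was lower at a p under 0.05. Their median log2 fold change was 0.65, and 136 values were above 0. With at least 10 reads in every sample, under edgeR and with a replicate block, 1 gene, *Riok3*, was lower. *Riok3*, named after its values were seen, is an atypical kinase of 40S maturation, and it had 1400 and 1468 normalized counts in *Pich*-KO against 2008 and 1717 in *Pich*-WT.

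By role, 42 of 52 further large subunit factors were higher (median log2 fold change 0.73), 27 of 41 small subunit factors (0.59), 8 of 10 factors that assemble snoRNA particles (0.79), 7 of 12 subunits of RNA polymerase I and its promoter factor SL1 (0.57) and 14 of 24 exosome and RNase MRP genes (0.48). The polymerase and exosome lists thus had lower medians than the subunit factors.

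The largest changes outside the 49 were in *Urb2* and *Urb1*, partners in the early 60S precursor of yeast. *Urb2* rose from 168 and 162 normalized counts in *Pich*-WT to 1143 and 1105 in *Pich*-KO, with a log2 fold change of 2.76 (SE 0.15, limma adjusted p = 4.58e-05). *Urb1* rose from 93.8 and 117 to 527 and 447, a log2 fold change of 2.20 (SE 0.21). Together with *Heatr1* these were the only listed ribosome biogenesis genes with a log2 fold change above 2. Next came *Ruvbl2*, an ATPase of snoRNA particle assembly, with 1.44 (SE 0.11), *Taf1d* of SL1 with 1.40 (SE 0.16), the helicase *Ddx21* with 1.34 (SE 0.11), *Nle1* with 1.21 (SE 0.13), *Mrto4* with 1.15 (SE 0.13) and *Polr1a*, the largest subunit of RNA polymerase I, with 1.12 (SE 0.11), all as log2 fold changes.

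The 8 smallest changes among the called factors were those of *Rrp1*, *Pelp1*, *Ddx47*, *Tex10*, *Exosc5*, *Krr1*, *Skiv2l2* and *Ddx27*, with log2 fold changes of 0.43 to 0.47. *Rrp1* had 9026 and 9459 normalized counts in *Pich*-KO against 6848 and 6916 in *Pich*-WT. *Pelp1* and *Tex10*, both of the complex that releases late 60S precursors, were not called without the filter on the mean.

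*Myc* and its network were read because the pathway's genes are known targets of MYC. Of 9 genes, 2 were higher, 6 lower and 1, *Mnt*, was not called. *Myc* rose from 4226 and 3854 normalized counts in *Pich*-WT to 8315 and 9910 in *Pich*-KO, with a log2 fold change of 1.17 (SE 0.11, limma adjusted p = 0.000294). *Max*, the partner of MYC, rose from 539 and 758 to 961 and 1544, a log2 fold change of 0.93 (SE 0.25), a call that was lost with a pseudocount of 0.1 and without the filter on the mean. The value was 0.59 without *Pich*-KO sample 2 and 1.27 without *Pich*-KO sample 1.

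*Mycn* fell from 1933 and 2328 to 1311 and 767, a log2 fold change of -1.08 (SE 0.23), and was not called without the filter on the mean. *Mycl* fell from 370 and 328 to 193 and 71.6, a log2 fold change of -1.56 (SE 0.41), and was likewise not called without it or with a pseudocount of 0.1. With *Pich*-KO sample 2 left out, the values were -0.69 for *Mycn* and -0.85 for *Mycl* on the log2 scale, and with *Pich*-KO sample 1 left out they were -1.47 and -2.27. The Mxd genes and *Mxi1*, whose proteins are repressors that compete for MAX, were lower. *Mxi1* fell from 825 and 720 to 200 and 158, a log2 fold change of -2.11 (SE 0.19). *Mxd4* changed by -1.73, *Mxd3* by -1.09 and *Mxd1* by -1.05. *Mnt* had 352 and 433 against 404 and 457, with overlapping groups.

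**Figure D5:**
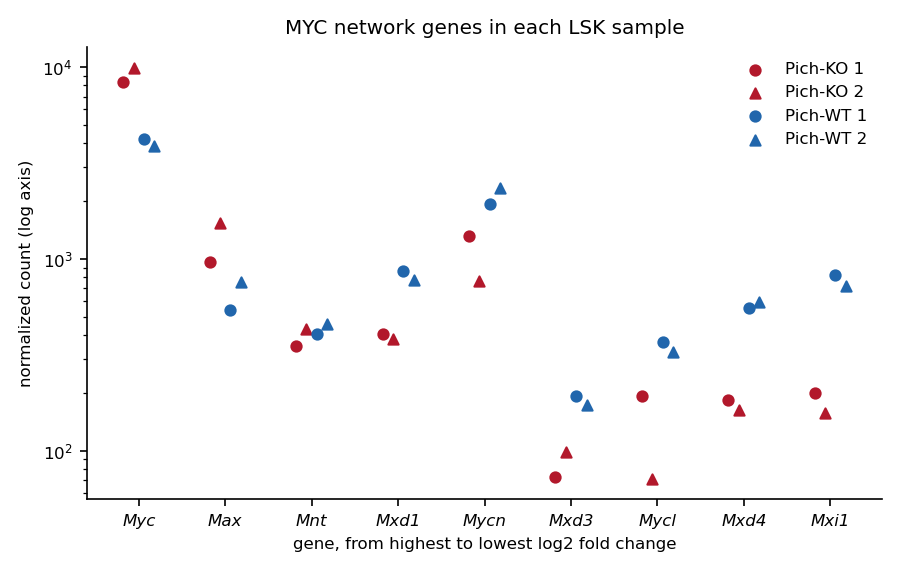
Normalized counts (y axis, log axis) of 9 genes of the MYC network (x axis) in each sample. Both *Pich*-KO samples lie above both *Pich*-WT samples in *Myc* and *Max* and below them in the 6 genes from *Mxd1* to *Mxi1*, and the groups overlap in *Mnt*.

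Of 5 genes of the 5S particle and the p53 checkpoint, 3 were higher, against 21.1% of genes with a mean of at least 100. *Rpl5* and *Rpl11*, the ribosomal proteins of the 5S particle that can bind MDM2, had log2 fold changes of 0.88 (SE 0.08) and 0.48 (SE 0.12). *Cdkn1a*, the p53 target that encodes p21, rose from 552 and 404 normalized counts to 1819 and 1277. *Trp53* and *Mdm2* were not called, with log2 fold changes of 0.04 (SE 0.09) and 0.10 (SE 0.12).

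The letters CACGTG were found in the windows of 10 of the 39 members with a RefSeq promoter, or 25.6%. They are in 16.9% of 118 other factors, in 12.4% of 8058 protein-coding genes with a mean of at least 100 and in 8.09% of all 27025 genes with a window. The 10 members are *Ltv1*, *Mdn1*, *Mybbp1a*, *Nop2*, *Pes1*, *Rrn3*, *Tsr1*, *Utp18*, *Utp20* and *Wdr43*. Of 11 matches, 10 begin between 60 bases before and 40 bases after the start. The ETS letters CCGGAAG, searched on both strands, are in 46.2% of members, 37.3% of other factors, 22.5% of the protein-coding genes with a mean of at least 100 and 9.93% of all genes. The letters GCGCATGC (part of the NRF1 motif) are in 7.69% of members against 6.56% of these expressed genes, and GATGGCGG (the YY1 motif) in 2.56% against 4.75%. The median log2 fold change was 0.82 in members with the E-box and 0.85 in members with a window but no E-box. For the ETS letters it was 0.76 in the 18 members with them and 0.90 in the 21 with a window but without them. In the 5 members with both it was 0.56, and these differences were not tested. The 10 members that were not matched to a window are *Bop1*, *Tcof1*, *Tbl3*, *Nol6*, *Rrs1*, *Wdr36*, *Npm1*, *Fbl*, *Rrp12* and *Utp6*.

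Markers of several other cell types also differed between the groups, and most of those called were lower in *Pich*-KO, where the set was higher. All 12 macrophage markers were lower in *Pich*-KO, with a summed 9149 and 8023 normalized counts against 59362 and 60902, and *Vsig4* was at 0 reads in 1 *Pich*-KO sample. Of 10 erythroid markers 9 were lower, with sums of 32679 and 34808 against 197604 and 139248, and 6 of 6 endothelial markers were lower, with sums of 2390 and 1449 against 28294 and 19049. Of 9 neutrophil granule genes 3 (*Mpo*, *Prtn3* and *Ctsg*) were higher and 0 lower at either an adjusted or an unadjusted p under 0.05. The 3 called genes summed to 62404 and 109180 against 12056 and 14475. The other 6 summed to 2108 and 12321 against 4627 and 4914, with overlapping groups in all 6 and a negative log2 fold change in 4. Of 8 hepatoblast markers 5 were lower (2900 and 2369 against 4602 and 4160), and of 7 lymphocyte markers 0 were called by limma, 2 being lower at an unadjusted p under 0.05.

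Of 10 LSK markers 1 was higher (*Ly6a*, the gene of Sca-1) and 4 lower (*Slamf1*, *Mecom*, *Hlf* and *Procr*). The fold, *Pich*-KO over *Pich*-WT, was 3.34 for *Ly6a*, 0.53 for *Slamf1*, 0.23 for *Mecom*, 0.19 for *Hlf* and 0.14 for *Procr*. At an unadjusted p under 0.05 by limma, 3 were higher, with *Kit* and *Cd48* added, and 6 lower, with *Flt3* and *Meis1* added. *Kit* and *Cd34* were present in all samples at 2328 to 11424 normalized counts. The LSK sums were 28428 and 18457 in *Pich*-KO against 23531 and 24809 in *Pich*-WT. *Cd34* alone gave 11424 and 6226 against 8901 and 8940 of them, so the sums say little about the markers with low counts. These values stand beside each result above, and their part in the higher levels of the ribosome biogenesis factors was not tested.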

How the data were processed

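RNA of sorted fetal liver LSK cells was sequenced in 2 samples of *Pich*-KO and 2 of *Pich*-WT, with libraries made by a kit that does not keep strand. The authors deposited one table, in which each value is a signal: reads counted on a gene and divided by one size factor per sample. Per the labels, the submitters' processing notes name Bowtie 0.12.2 and the builds mm8 and mm9 without a role. The coordinates of the table match GRCm38 instead, as 39131 of 39186 genes were found in GENCODE M21 and 97.8% of these had the same start and end. How reads were counted, and on which annotation, is not given in the sources used here. The authors' group means, fold changes and p-values in the table were not used. In each sample 100% of the values lay within 1e-06 of a whole number of reads when divided by the smallest step, with 14703215 to 20933919 reads on genes.

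Values were tested as log2(value + 1) by limma 3.58.1 in R 4.3.3, with a trend of the prior variance on the mean level, over 32428 genes with a mean of at least 1, and adjusted by Benjamini-Hochberg. Fold changes are on this scale. Alternatives were a pseudocount of 0.1, no filter, at least 10 reads in every sample, one prior variance, edgeR 4.0.16 (TMM or upper-quartile scaling), DESeq2 1.42.0, a replicate block and leaving out each sample. The script was tested on simulated counts.

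The members and all gene lists were chosen with earlier results of these data known, so no list supports another. All members are named. For roles of 6 or more members, the 3 highest and 3 lowest log2 fold changes are given in full. Of the other factors, the 8 highest and 8 lowest among those called, with a mean of at least 100 and no overlap between groups, are named. In the MYC network, *Myc*, *Mycn*, *Max* and the genes called are named, and other lists are given as counts with examples. Promoter windows were taken from RefSeq (GRCm38.p6), 39 of 49 members by symbol, and coding lengths and exon overlaps from GENCODE M21. With 2 samples a group, p-values rest on the spread between these samples alone, together with a prior variance borrowed from all genes tested.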

Additional observations from a re-analysis of the deposited data

How the results depend on the processing

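The members called higher numbered 43 to 47 of 49, and the other factors called higher 83 to 112, under the alternatives that keep all samples and the variance trend, against 45 and 98. With one prior variance for all genes the counts were 0 members, 0 other factors, and 0 higher and 0 lower of all genes tested, where 34, 70, 3343 and 4034 had an unadjusted p under 0.05. Leaving out any sample in turn lost all adjusted calls in the same lists. Of the other factors, 1 (*Riok3*) was lower with at least 10 reads in every sample, under edgeR with TMM, under edgeR with upper-quartile scaling and with the replicate block. The cause was not tested for any of these except that a sample left out leaves fewer samples. The median log2 fold change of the members was 0.81 to 0.88 and that of the other factors 0.58 to 0.68 over all settings, and 49 of 49 members were above 0 in each.

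The deviations of samples with the same number had a correlation of 0.01 over 10544 genes, so the numbers are taken as names. With the replicate block, 45 members and 102 other factors were higher, and 3122 genes were higher and 3874 lower of all tested. Of 73 named genes under the 7 alternatives that keep all samples and the variance trend, 495 values kept their side of the threshold, 10 lost it, 6 gained it and 0 changed sign.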

Other observations

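Small nucleolar RNAs guide the modification of ribosomal RNA, and several are cut from introns of these genes. The table lists 10 snoRNA genes inside introns of 5 members, all on the strand of the host: Snord70, Gm26287 and Snord11 in *Nop58*, Snord110 in *Nop56*, Snord53, Snord92 and Gm22858 in *Wdr43*, Snord91a and Gm22771 in *Tsr1*, and Gm25520 in *Dkc1*. Their reads summed to 116 and 202 in *Pich*-KO and to 46 and 32 in *Pich*-WT. Of 9 tested, 9 had a log2 fold change above 0, 2 were higher and 0 lower, and of 188 snoRNA genes tested altogether, 7 were higher and 1 lower. Snord70 (chromosome 1, 59691934 to 59692020) had 45 and 75 reads in *Pich*-KO against 15 and 7 in *Pich*-WT, with a log2 fold change of 2.70 (SE 0.47), where that of its host *Nop58* was 1.21. Snord110 (chromosome 2, 130275506 to 130275573) had 19 and 32 reads against 3 and 6, a log2 fold change of 2.56 (SE 0.61), where that of its host *Nop56* was 1.07. Reads of unspliced host RNA over these short genes cannot be told apart from snoRNA reads here, and the counts are low.

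The members with long coding sequences included those with the largest differences. *Mdn1*, *Utp20* and *Heatr1* have the 3 longest coding sequences of the set, with 16767, 8367 and 6429 bases, and log2 fold changes of 1.66, 1.35 and 2.99, the 3 highest. Over the 49 members, the Pearson correlation between log2 coding length and log2 fold change was 0.34 (Spearman 0.18), and it was 0.25 (Spearman 0.13) without *Heatr1*. It was 0.31 over the 139 other factors and 0.04 over 10119 genes with a mean of at least 100 and a coding length. Genes share these libraries and are not independent replicates.

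Exons of 15 members overlap exons of a gene on the opposite strand, whose reads a library without strand cannot separate. The overlap is at least 5% of the member's exons in 4 cases: 37.3% of *Tbl3* (with Noxo1), 32.3% of *Tsr1* (with Srr), 20.9% of *Noc2l* (with Samd11) and 15.7% of *Wdr3* (with Spag17). The 4 partners had means of 1.11 to 74.3 normalized counts in *Pich*-KO and 9.97 to 140 in *Pich*-WT, where these members had 960.8 or more. For *Heatr1* it is 1.98%, with Lgals8, whose means of 773 in *Pich*-KO and 1058 in *Pich*-WT were below that of *Heatr1* in *Pich*-KO (2151) and above it in *Pich*-WT (269).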
